A study of Mus musculus with 23 samples.

Results

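The genes examined here encode the BET proteins and P-TEFb, the readers and the kinase that act at the step where RNA polymerase II leaves its promoter-proximal pause. The set holds 7 of the 22619 named genes in the deposited tables: Brd2, Brd3 and Brdt for the BET family, Cdk9, Ccnt1 and Ccnt2 for P-TEFb, and Hexim1 for its inhibitor. They were chosen by gene symbol, and the value of a gene is the sum of FPKM (fragments per kilobase of transcript, scaled to the mapped reads of the library) over its annotated transcripts. RNA-seq had been made from 23 libraries of mouse embryos, labelled with the strain B6D2F1 (C57BL/6xDBA/2), which the methods give for the females that donated the oocytes, while sperm came from C57BL/6 males. The germinal vesicle oocytes were injected with a mixture of siRNAs against Etv5, Mlx or Rfx1, or with a control siRNA (siCtrl), and then matured in vitro and fertilized. The groups are siEtv5, siMlx, siRfx1 and siCtrl 2-cell embryos, labelled 36 h after fertilization, and the same siRNAs in late zygotes, labelled 14 h. The methods of the study give later collection times for both stages. Every group has 3 libraries except siEtv5 2-cell embryos, which have 2. All embryos were injected, so no group shows uninjected development, and the siRNAs could act on maternal as well as embryonic transcripts. The number of embryos in a library was not stated in the labels, so in these bulk samples a change in the number of blastomeres in a given state and a change in RNA per blastomere cannot be told apart.

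BET proteins carry a pair of bromodomains that bind acetylated lysines on histone tails, and an extraterminal domain that recruits further regulators. BRD2 and BRD3 are broadly expressed, whereas BRDT is best known from male germ cells, where it takes part in the reorganisation of chromatin in spermatids. P-TEFb consists of the kinase CDK9 and a cyclin T subunit, CCNT1 or CCNT2. It phosphorylates the negative elongation factor, the SPT5 subunit of DSIF and the carboxy-terminal domain of the polymerase, which lets paused polymerase go on into the gene. HEXIM1, bound to the 7SK small nuclear RNA, holds a part of P-TEFb in an inactive complex. In the mouse a minor wave of zygotic genome activation begins in the zygote, and the main wave falls at the 2-cell stage. The libraries do not separate inherited maternal from embryonic transcripts of these genes.

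The libraries held 404 to 991 Mb of aligned bases, apart from the 3 siRfx1 2-cell libraries with 119 to 174 Mb. Pairs of replicates had a Pearson r of 0.829 to 0.966 across genes in the other 7 groups and of 0.583 to 0.635 in siRfx1 2-cell embryos, so values from that group are the least certain. The 8 oocyte and early embryo markers were all present in every group. The summed level of the 10 listed markers of the 2-cell stage was 1080 to 1250 FPKM in siEtv5, 88.9 to 360 FPKM in siMlx, 214 to 303 FPKM in siRfx1 and 541 to 742 FPKM in siCtrl 2-cell embryos, with Tcstv1 and Tcstv3 listed at 0 in all groups. Cumulus and granulosa markers summed to 0 to 16.7 FPKM in 2-cell and 0.210 to 1.36 FPKM in zygote libraries, with 10.4 to 16.7 FPKM in siCtrl 2-cell embryos and 0.659 to 1.13 FPKM in siCtrl zygotes, and 6 or more of the 11 were at 0 in each group. Sperm markers summed to 0 to 14.0 FPKM in 2-cell and 9.88 to 35.1 FPKM in zygote libraries. Rfx1 had 1.43, 1.48 and 1.53 FPKM in siRfx1 against 10.7, 8.68 and 8.12 FPKM in siCtrl 2-cell embryos, and Etv5 had 8.98 and 5.55 FPKM in siEtv5 against 49.4, 43.7 and 44.6 FPKM in siCtrl 2-cell embryos. Mlx had 0.836, 2.26 and 4.05 FPKM in siMlx against 2.43, 4.42 and 3.74 FPKM in siCtrl 2-cell embryos, so those groups overlapped. In zygotes the libraries with the matching siRNA lay below every siCtrl library for each of the silenced genes.

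The position of the reads along the transcripts bears on what an FPKM of these genes stands for. Over all transcripts with a mean coverage of at least 5, the 36642 internal exons shorter than 200 bases had a median coverage of 0.0707% of their transcript's mean, against 86.7% for the 5391 internal exons of 200 bases or more. The members followed the same division, with 30 of their 40 short internal exons and 3 of their 17 long internal exons under 10% of the transcript's mean. Exons of 200 bases or more made up 61.5% of the length of Brdt and 64.3% of that of Ccnt1, but 100% of that of Hexim1, so a level is best compared with that of the same gene in another library. The cause of the low coverage of short exons was not tested.

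Hexim1 (chromosome 11, 102977639 to 102981038, plus strand, mm9) has a single exon of 3400 bases and is counted over its whole length. Cdk9 (chromosome 2, 32561302 to 32568304, minus strand) has 7 exons, of which the last, with 2508 of the 3389 bases, held 73.8 to 100% of the coverage. Ccnt1 (chromosome 15, 98373642 to 98398067, minus strand) had 78.0 to 96.6% of its coverage on the last of 9 exons. Its first exon overlaps the start of 9330020H09Rik on the opposite strand, and since the quantification did not use strand, reads there cannot be told apart. That exon held a median of 8.46% of the Ccnt1 coverage. Ccnt2 (chromosome 1, 129670741 to 129701414, plus strand) had 63.7 to 100% on the last of 9 exons. The 7 internal exons of Ccnt1 and Ccnt2 have the same lengths in the same order, 82, 129, 61, 63, 46, 164 and 71 bases, and most of the coverage of both genes lay outside them. Brd2 (chromosome 17, 34248964 to 34259552, minus strand) and Brd3 (chromosome 2, 27301101 to 27331193, minus strand) were covered on several long exons along their length in the siCtrl means. Single libraries varied, with 0.0178 to 76.3% of the Brd2 coverage on its exon 2. Of the 12 exons of Brd3, 2 to 8 were covered in a library. Brd2 and Brd3 have 3 annotated transcripts each. The most abundant took at least 98.2% of the Brd2 and 98.6% of the Brd3 FPKM.

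Brdt (chromosome 5, 107760213 to 107816077, plus strand) stood apart in the shape of its coverage. A pseudogene, Gm8152, lies on the opposite strand at 107810400 to 107811036, outside the exons. The 19-exon transcript of Brdt took all of the FPKM in all 23 libraries, and the annotated 7-exon transcript, which ends at 107779760, was listed at 0. Yet exons 1 to 7, with 27.0% of the length, held 55.4 to 100% of the coverage, with a median of 91.2%. Among the exons of at least 200 bases, exons 3 and 7 had a mean coverage of 154 and 229 in siCtrl 2-cell embryos and of 210 and 244 in siCtrl zygotes. Exons 11, 13 and 17, which are also at least 200 bases long, had 1.07, 0 and 0 in siCtrl 2-cell embryos and 0, 1.40 and 2.80 in siCtrl zygotes. The last exon, of 1601 bases, had 4.21 in siCtrl 2-cell embryos and 12.2 in siCtrl zygotes. The Brdt level in these libraries is thus mostly a measure of the first part of the gene, which encodes the amino-terminal part of the protein.

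**Figure D1:**
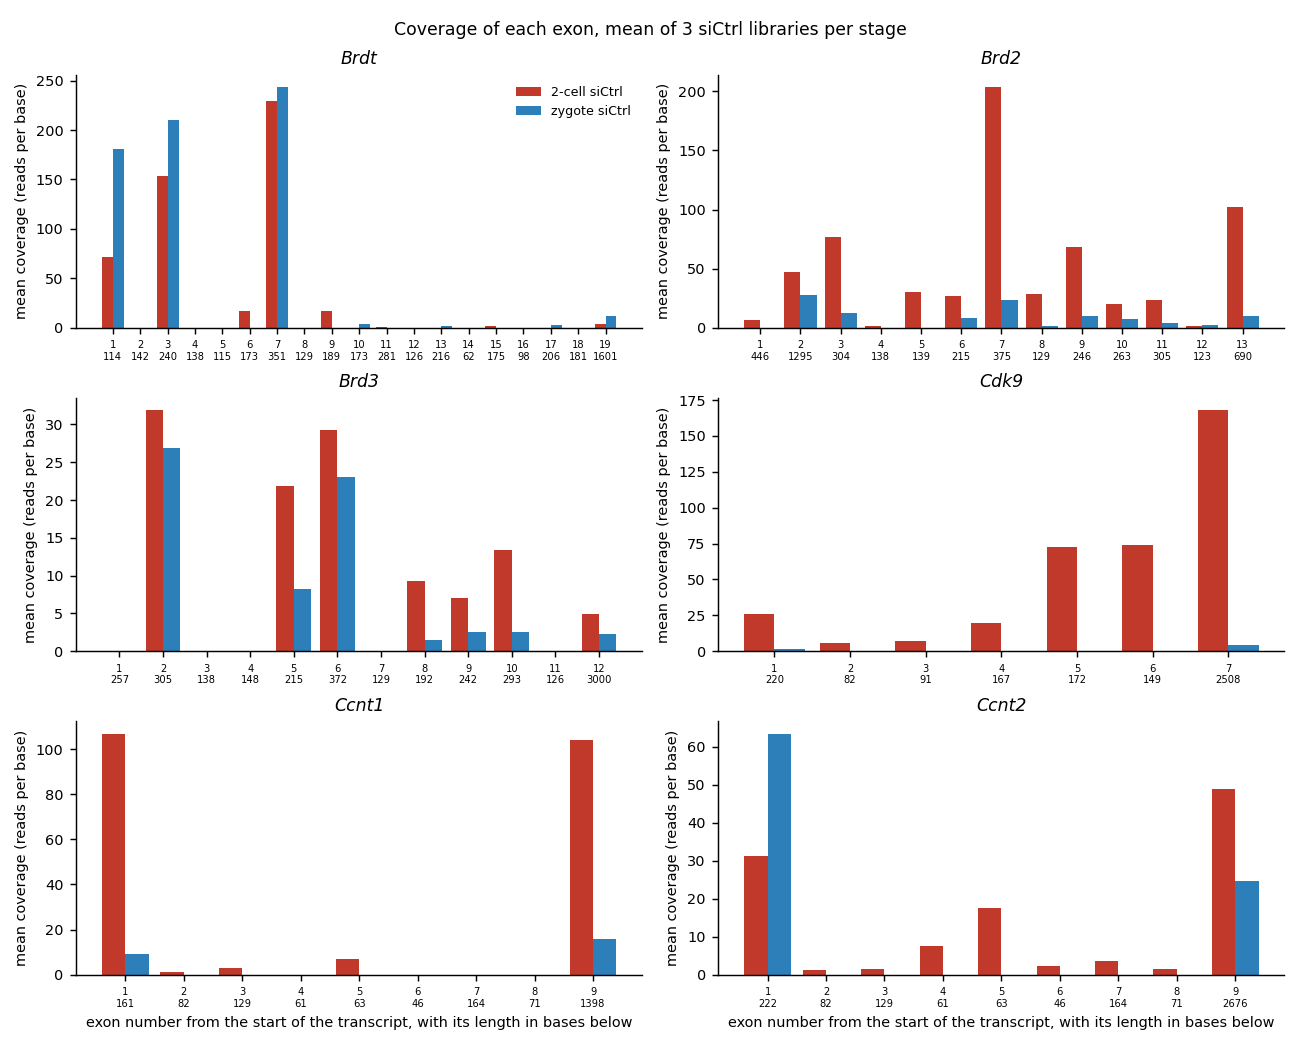
Mean coverage (reads per base) of each exon, numbered from the start of the transcript with its length in bases below, for 6 members, as the mean of 3 siCtrl 2-cell libraries (red, left bars) and of 3 siCtrl zygote libraries (blue, right bars). Most short exons are near 0, the first and last exons carry Ccnt1 and Ccnt2, the last exon carries Cdk9, and Brdt is covered on exons 1, 3 and 7 but hardly after exon 7.

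The promoters were searched on both strands for CACGTG (the E-box bound by MLX and its partners), GTTGCC (an X-box half-site, as bound by RFX factors) and CCGGAAGT (an ETS element), in the 250 bases before the start of the most abundant transcript. Each motif occurred in the promoter of 1 of the 7 members, and in 6.68% (E-box), 9.61% (X-box half-site) and 3.94% (ETS) of 22557 promoters of the same length. The E-box of Brdt began 78 bases before the start, the half-site of Brd2 223 bases before it, in the reverse orientation, and the ETS element of Ccnt1 180 bases before it. Brd3, Cdk9, Ccnt2 and Hexim1 held none of these motifs in this window. The 3 promoters with a match are shown so that the letters of these elements, which the families of the silenced factors are known to bind, can be seen in their surroundings. They lie in mm9 at chr17:34259553-34259802 (Brd2, minus strand), chr5:107759963-107760212 (Brdt, plus strand) and chr15:98398068-98398317 (Ccnt1, minus strand), are written 5′ to 3′ toward the gene, and have the motif in capitals.
Brd2: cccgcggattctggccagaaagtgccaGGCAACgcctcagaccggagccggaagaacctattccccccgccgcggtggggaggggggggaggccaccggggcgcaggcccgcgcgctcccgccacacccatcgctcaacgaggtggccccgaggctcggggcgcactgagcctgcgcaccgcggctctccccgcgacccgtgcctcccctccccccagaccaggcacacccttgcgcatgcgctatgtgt
Brdt: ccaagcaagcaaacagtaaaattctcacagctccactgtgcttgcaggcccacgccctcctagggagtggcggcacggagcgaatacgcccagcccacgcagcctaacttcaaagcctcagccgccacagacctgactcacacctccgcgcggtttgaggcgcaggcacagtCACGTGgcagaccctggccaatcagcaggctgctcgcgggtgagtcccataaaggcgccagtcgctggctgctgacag
Ccnt1: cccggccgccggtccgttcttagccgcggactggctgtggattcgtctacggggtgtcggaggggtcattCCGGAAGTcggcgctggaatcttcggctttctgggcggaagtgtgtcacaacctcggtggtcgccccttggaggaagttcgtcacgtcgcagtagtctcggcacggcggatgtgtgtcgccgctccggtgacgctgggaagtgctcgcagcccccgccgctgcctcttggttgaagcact
The Ccnt1 window lies within 9330020H09Rik on the opposite strand. All 7 promoters were rich in CpG, with 16 CpG in Brdt and 18 to 37 in the other members, against a median of 10 over all promoters.

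The change from the zygote to the 2-cell stage was tested within each siRNA on log2(rescaled FPKM + 1) with limma, where rescaling sets the median ratio of shared genes to 1, so that a rise or fall is relative to the other genes and not per embryo. A call required an adjusted p below 0.05 together with more than a doubling or halving. In siCtrl embryos, Hexim1, Cdk9, Ccnt1 and Brd2 were higher at the 2-cell stage, which is 4 of 7 members against 37.0% of the 11094 genes tested that were called higher, and no member was called lower, against 26.9%. The median log2 fold change was 1.52 over the members and 0.27 over all genes tested. In siEtv5 embryos Hexim1, Cdk9 and Ccnt1 were higher, against 37.9% of all genes, and no member was lower, against 23% (2501 of 10887 genes). In siMlx embryos 5 members were higher (Hexim1, Cdk9, Ccnt1, Brd3 and Brd2), against 35.4% of all genes, and Brdt was lower, against 29.1%. In siRfx1 embryos Cdk9, Hexim1 and Brd2 were higher, against 18.7% of all genes, and no member was lower, against 29.7%. The 4 stage comparisons share no library. Hexim1 and Cdk9 were called in each of them, and the share of all genes called higher in all 4 was not counted.

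Cdk9, the catalytic subunit, had 143, 196 and 151 FPKM in siCtrl 2-cell embryos, against 8.60, 3.58 and 3.88 FPKM in siCtrl zygotes. The lowest of the 11 2-cell libraries, at 72.2 FPKM in siMlx, lay far above the highest of the 12 zygote libraries, at 8.60 FPKM in siCtrl. The log2 fold change was 4.53 ± 0.31 (SE, adjusted p = 9.82e-06, limma) in siCtrl, 3.95 ± 0.27 in siEtv5 (adjusted p = 0.000102), 5.07 ± 0.30 in siMlx (adjusted p = 7.85e-06) and 5.05 ± 0.59 in siRfx1 embryos (adjusted p = 0.00108). In siRfx1 2-cell embryos the 3 libraries had 298, 91.7 and 76.1 FPKM, so the mean of that group rested on replicate 1. Without that library the log2 fold change in siRfx1 embryos was 4.56.

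Hexim1 had 79.3, 74.1 and 58.1 FPKM in siCtrl 2-cell embryos, against 2.15, 0.601 and 0.560 FPKM in siCtrl zygotes. It was the member nearest to absence in zygotes, with a median of 0.598 FPKM over 12 libraries and with 1 siEtv5 and 1 siRfx1 library in which it was listed at 0. At the 2-cell stage the lowest of 11 libraries had 25.9 FPKM. The log2 fold change was 4.96 ± 0.32 in siCtrl (adjusted p = 8.5e-06), 4.77 ± 0.53 in siEtv5 (adjusted p = 0.000475), 4.33 ± 0.29 in siMlx (adjusted p = 1.13e-05) and 4.33 ± 0.50 in siRfx1 embryos (adjusted p = 0.00107). These folds understate the ratio of the FPKM, because 1 FPKM was added to zygote values that are mostly below 1. The FPKM of Cdk9 and of Hexim1 were thus both low in the late zygote, and neither range overlapped between the stages. The share of all genes with such a gap was not counted. Complementary DNA was primed with oligo-dT, and neither poly(A) tails nor protein were measured.

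The cyclins differed from each other. Ccnt1, the cyclin that most CDK9 is bound to in many cell types, had 76.5, 90.4 and 102 FPKM in siCtrl 2-cell embryos, against 19.5, 13.3 and 16.7 FPKM in siCtrl zygotes, a log2 fold change of 2.13 ± 0.20 (adjusted p = 4.36e-05). It also rose in siMlx embryos (1.79 ± 0.38, adjusted p = 0.00296) and in siEtv5 embryos (1.95 ± 0.42, adjusted p = 0.0069). The siEtv5 call was lost without 2-cell replicate 1 (adjusted p = 0.0704) or without 2-cell replicate 2 (adjusted p = 0.0911), each of which leaves a single 2-cell library. In siRfx1 embryos Ccnt1 had 27.9, 31.2 and 21.6 FPKM at the 2-cell stage against 10.1, 18.9 and 22.6 FPKM in zygotes, with overlapping ranges and a log2 fold change of 0.45 (95% interval -0.48 to 1.37).

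Ccnt2, the alternative cyclin, had 50.9, 52.1 and 43.7 FPKM in siCtrl 2-cell embryos and was already at 40.9, 35.4 and 29.2 FPKM in siCtrl zygotes, a log2 fold change of 0.22 (95% interval -0.22 to 0.67). It was not called in any of the 4 stage comparisons. Its highest and lowest 2-cell values, 110 and 11.7 FPKM, both came from siRfx1 embryos (replicates 3 and 2). In siMlx embryos it had 13.3, 28.7 and 36.4 FPKM at the 2-cell stage and 35.9, 25.7 and 29.6 FPKM in zygotes, with a log2 fold change of -0.68 (95% interval -1.44 to 0.08).

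Among the BET genes, Brd2 had 60.3, 79.0 and 75.2 FPKM in siCtrl 2-cell embryos, against 15.5, 24.7 and 21.1 FPKM in siCtrl zygotes, a log2 fold change of 1.52 ± 0.23 (adjusted p = 0.000537). It also rose in siRfx1 embryos (1.60 ± 0.33, adjusted p = 0.00861) and in siMlx embryos (1.23 ± 0.37, adjusted p = 0.0163), a call that was lost without zygote replicate 1 (adjusted p = 0.0771) or zygote replicate 3 (adjusted p = 0.0619) of siMlx. In siEtv5 embryos, with 43.1 and 21.8 FPKM at the 2-cell stage against 21.8, 15.6 and 8.71 FPKM in zygotes, the log2 fold change was 0.78 (95% interval -0.29 to 1.85).

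Brd3 had the lowest FPKM of the BET genes in siCtrl embryos, at 13.1, 15.1 and 5.15 FPKM in siCtrl 2-cell embryos and 6.69, 6.69 and 9.11 FPKM in siCtrl zygotes, with overlapping ranges. The 1 stage comparison in which it was called was that of siMlx embryos, with 15.1, 18.1 and 34.1 FPKM at the 2-cell stage against 4.70, 5.20 and 4.59 FPKM in zygotes (log2 fold change 1.57 ± 0.31, adjusted p = 0.00221). In siRfx1 2-cell embryos Brd3 had 3.15, 32.1 and 25.0 FPKM. Without the first of these libraries the siRfx1 stage change was 1.61 (adjusted p = 0.0075), against 0.55 with it (adjusted p = 0.596).

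Brdt ran the other way. It had 42.5, 30.2 and 35.3 FPKM in siCtrl 2-cell embryos, against 67.1, 56.0 and 51.2 FPKM in siCtrl zygotes. Every 2-cell library was below every zygote library of that siRNA, and the share of all genes with such a gap was not counted. The log2 fold change of Brdt was -0.93 ± 0.20 (adjusted p = 0.00305, limma). This passed the p threshold, as did 7963 of the 11094 genes tested, but stayed below a fold of 2. Without zygote siCtrl replicate 3 the value was -1.08 (adjusted p = 0.00628). In siMlx embryos Brdt was called lower, with 12.3, 29.6 and 40.9 FPKM at the 2-cell stage against 58.0, 47.2 and 66.0 FPKM in zygotes (-1.54 ± 0.37, adjusted p = 0.00582). The values in siEtv5 (-0.67, 95% interval -1.83 to 0.50) and siRfx1 embryos (-1.23, 95% interval -2.76 to 0.30) did not pass, and the siEtv5 value was 0.12 without 2-cell siEtv5 replicate 2. The 6 sperm markers summed to 0 to 4.72 FPKM in siCtrl 2-cell embryos and 21.5 to 34.5 FPKM in siCtrl zygotes, with Prm1, Tnp1, Tnp2 and Smcp at 0 in those zygotes, and their part in the Brdt change was not tested.

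**Figure D2:**
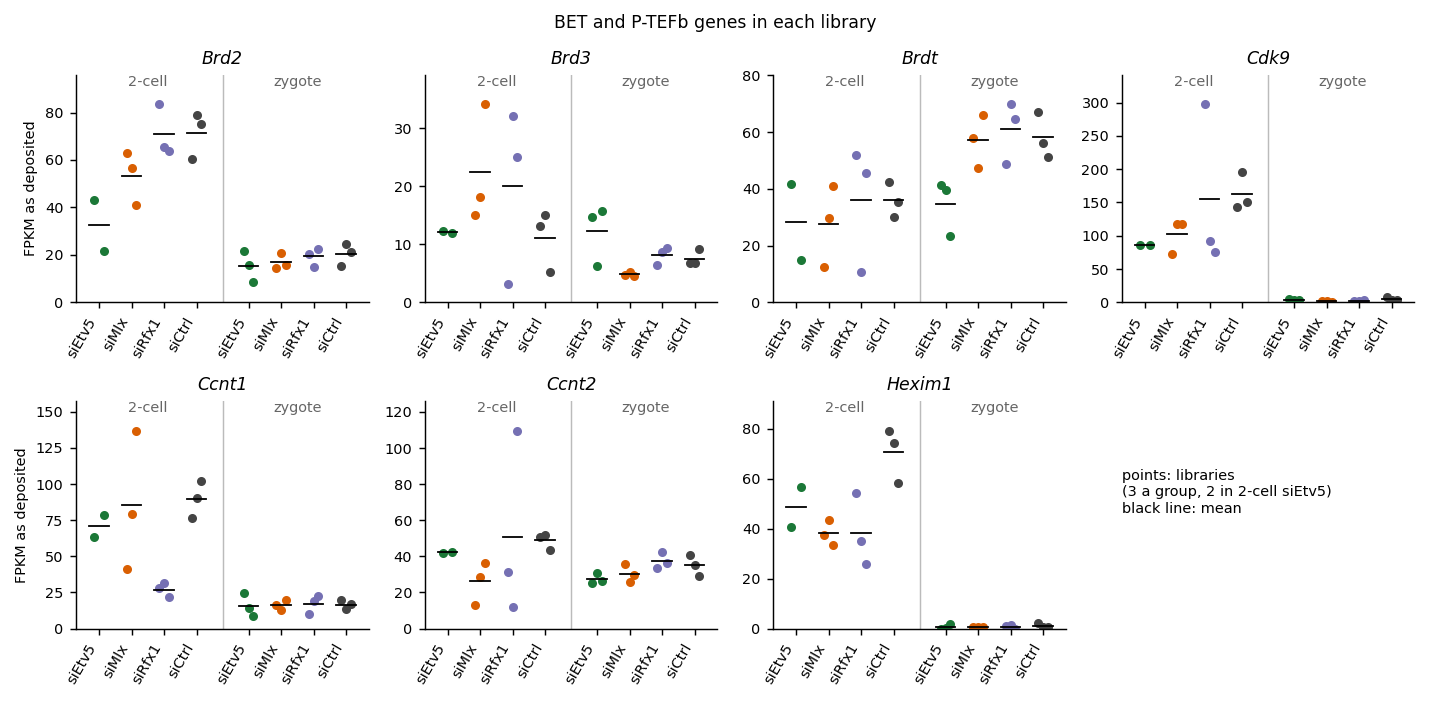
FPKM as deposited of each member (vertical axis, linear, own scale in each panel) in every library, with 2-cell groups left and zygote groups right of the grey line, and the group mean as a black bar. Cdk9 and Hexim1 are near 0 in all 12 zygote libraries and at 72.2 FPKM or more and 25.9 FPKM or more in all 11 2-cell libraries, while Ccnt2 spans 11.7 to 110 FPKM at the 2-cell stage.

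**Figure D3:**
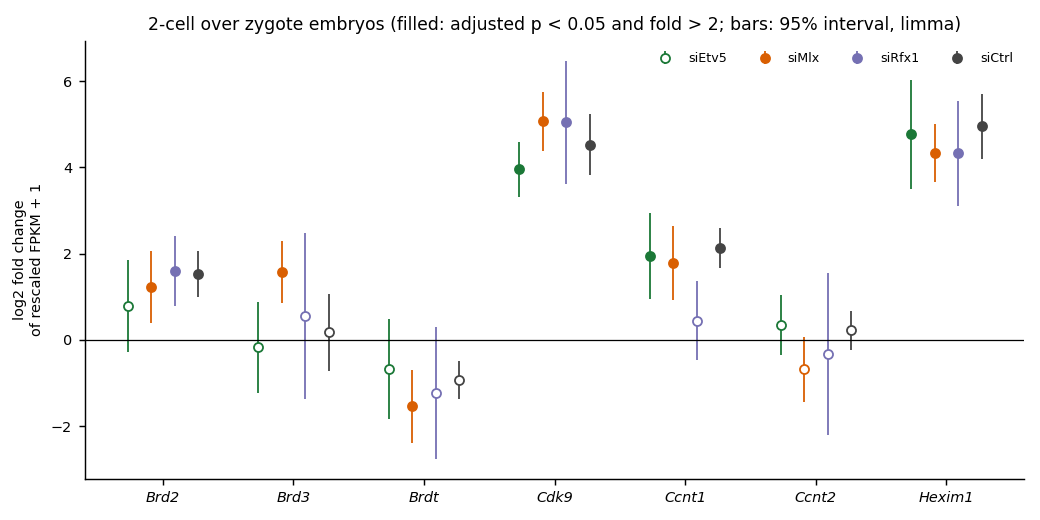
Log2 fold change of rescaled FPKM + 1 (vertical axis), 2-cell over zygote embryos, for each member under each siRNA, with 95% intervals from limma and filled points for called genes. Cdk9 and Hexim1 lie between 3.95 and 5.07 under every siRNA, Ccnt1 under siRfx1 is the open point at 0.45, and Brdt lies below 0 throughout.

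The order of the 8 groups showed where levels could be told apart. For Cdk9 and Hexim1 the 4 2-cell groups ranked above the 4 zygote groups with no overlap between the stages. The share of all genes with such an order, or with the gaps between groups given below, was not counted. Within the 2-cell stage, as deposited, Hexim1 in siCtrl embryos (70.5 ± 11.1 FPKM, SD, n = 3) did not overlap the next group, siEtv5 (48.7 ± 11.5 FPKM, n = 2), whereas siEtv5, siRfx1 and siMlx overlapped their neighbours. Within zygotes Cdk9 was lowest in siMlx (1.46 ± 0.52 FPKM, n = 3) and next lowest in siRfx1 (2.38 ± 0.47 FPKM), 2 groups that overlapped once rescaled, and both lay below siEtv5 (3.73 ± 0.52 FPKM), which overlapped siCtrl (5.36 ± 2.82 FPKM). For Ccnt1 the 2-cell siRfx1 group (26.9 ± 4.85 FPKM) was separated from the siEtv5 group above it (71.2 ± 10.9 FPKM) and overlapped siRfx1 and siEtv5 zygotes, but not siCtrl or siMlx zygotes as deposited. Brdt, Brd3 and Ccnt2 had mixed orders in which most neighbours overlapped.

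The balance of the members within a library does not depend on the scaling of libraries, and the following ratios were chosen after the values were seen and were not tested. They compare FPKM per length between genes whose short exons are unevenly covered, so their differences between libraries are safer than their absolute size. Brdt made up 9.92 to 43.0% of the summed BET FPKM in the 11 2-cell libraries and 48.8 to 76.7% in the 12 zygote libraries, and Brd2 made up 35.3 to 69.7% at the 2-cell stage and 16.0 to 28.2% in zygotes. Neither share overlapped between the stages. The ratio of Cdk9 to the sum of Ccnt1 and Ccnt2 was 0.580 to 5.03 at the 2-cell stage and 0.0225 to 0.142 in zygotes, so in FPKM the kinase was below its cyclins in every zygote library. Within zygotes this ratio was 0.0225, 0.0230 and 0.0529 in siMlx, 0.0475, 0.0352 and 0.0493 in siRfx1 and 0.0736 to 0.142 in siCtrl embryos.

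Ccnt1 over Ccnt2 was 1.50, 1.74 and 2.33 in siCtrl 2-cell embryos and 0.377, 0.477 and 0.572 in siCtrl zygotes. It was 2.76 to 3.76 in siMlx 2-cell embryos, above each siCtrl library, and 0.197 to 2.67 in siRfx1 2-cell embryos, the widest spread of any 2-cell group. Hexim1 over Cdk9 overlapped between the stages, at 0.183 to 0.665 in 2-cell and 0 to 0.611 in zygote libraries.

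**Figure D4:**
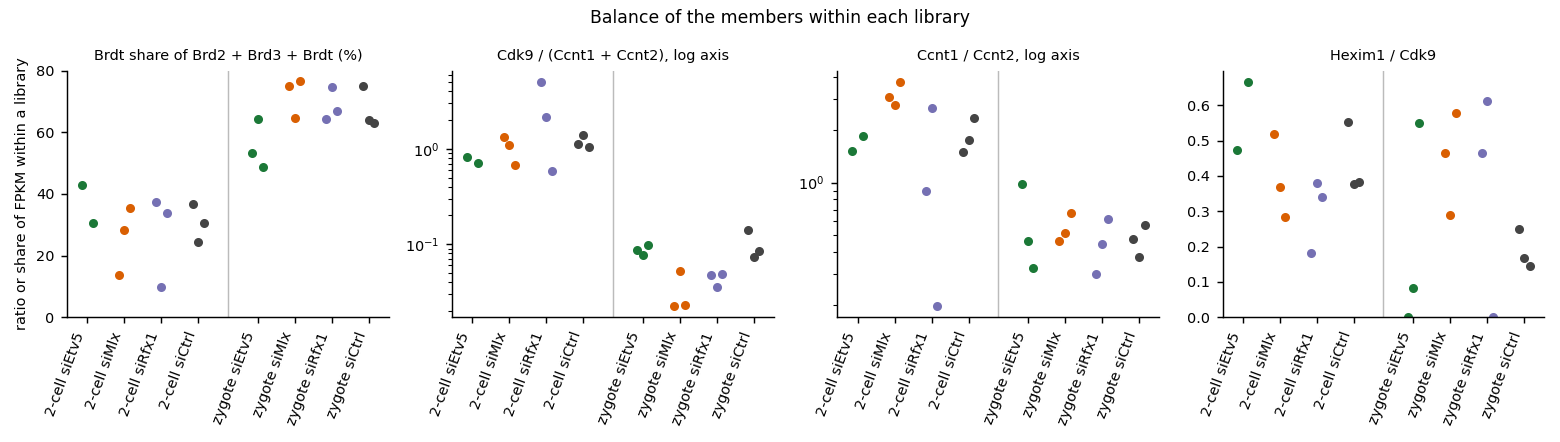
Share of the summed BET FPKM from Brdt (percent), and the ratios Cdk9 over Ccnt1 plus Ccnt2, Ccnt1 over Ccnt2 (both on log axes) and Hexim1 over Cdk9, in each library, with 2-cell groups left and zygote groups right of the grey line. The Brdt share (at most 43.0% against at least 48.8%) and the Cdk9 ratio (at least 0.580 against at most 0.142) do not overlap between the stages.

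The KD comparisons asked whether silencing of Mlx or Rfx1, factors that the study took up as candidate regulators of zygotic genome activation, or of Etv5, which it used as a negative control, altered these genes at either stage. No member was called by limma in any of the 6 comparisons with siCtrl. An unadjusted p under 0.05 was found in 7 of the 39 fold changes of members, and such a p was also common over all genes. At the 2-cell stage 1729 of 11137 genes had it in siEtv5, 1982 of 10584 in siMlx and 2391 of 10302 in siRfx1 embryos. In zygotes 2203 of 8934 genes had it in siMlx and 1311 of 8983 in siRfx1 embryos. At the 2-cell stage the share of all genes called was 0.251% in siEtv5 (0 of 7 members), 0.00945% in siMlx (0 of 7) and 3.56% in siRfx1 embryos (0 of 7). In zygotes it was 0% in siEtv5, where 1117 of 8993 genes had an unadjusted p under 0.05 (0 of 6 members called), 2.15% in siMlx (0 of 6) and 0.0557% in siRfx1 embryos (0 of 6). Hexim1 was below the filter of a mean of 1 FPKM in the zygote comparisons. The 3 KD groups of a stage share the same siCtrl libraries. The scaling of the libraries bears on the direction of these calls. Over all genes, 218 were higher and 149 lower in siRfx1 than in siCtrl 2-cell embryos after rescaling, but 148 and 1183 with the FPKM as deposited, where the median log2 fold change was -0.85 in place of -0.25. The same counts were 101 and 91 after rescaling and 71 and 612 as deposited in siMlx zygotes, 0 and 1 against 12 and 64 in siMlx 2-cell embryos, and 4 and 1 against 1 and 1 in siRfx1 zygotes. With 3 libraries against 3 the exact permutation test of a single gene cannot go below p = 0.1 (two-sided), and with 2 against 3 not below 0.2. Where KD and siCtrl groups are described below as not overlapping, the share of all genes that also did not overlap was not counted.

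In siEtv5 2-cell embryos, 6 of 7 members had a negative log2 fold change, with a median of -0.48 over the members and of 0.04 over all genes. Cdk9 had 85.6 and 85.4 FPKM in siEtv5 against 143, 196 and 151 FPKM in siCtrl embryos, with a log2 fold change of -0.90 (95% interval -1.32 to -0.48, adjusted p = 0.0954). Brd2 had 43.1 and 21.8 FPKM in siEtv5 against 60.3, 79.0 and 75.2 FPKM in siCtrl embryos, with a log2 fold change of -1.18 (95% interval -1.86 to -0.49, adjusted p = 0.151). In both genes no siEtv5 library reached the lowest siCtrl library, and both had the smallest p that the exact permutation test allows, 0.2. The same held for Ccnt2 and Hexim1, and the share of all genes with such a gap was not counted. The Brd2 value was -0.71 without 2-cell siEtv5 replicate 2. Hexim1, at 40.6 and 56.8 FPKM in siEtv5 against 79.3, 74.1 and 58.1 FPKM in siCtrl embryos, had a value of -0.52 (95% interval -1.07 to 0.03), and of -0.28 without 2-cell siEtv5 replicate 1. Ccnt1, the member with an ETS element in its promoter, had -0.32 (95% interval -0.78 to 0.15). The summed 2-cell markers were 1080 to 1250 FPKM in siEtv5 and 541 to 742 FPKM in siCtrl embryos, and the part of this difference in the values of the members was not tested.

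In siMlx 2-cell embryos the member with the highest positive value was Brd3, at 15.1, 18.1 and 34.1 FPKM against 13.1, 15.1 and 5.15 FPKM in siCtrl embryos, with a log2 fold change of 1.22 (95% interval 0.24 to 2.20, adjusted p = 0.2). The lowest siMlx library and the highest siCtrl library were nearly level as deposited, and the groups did not overlap once rescaled. Without 2-cell siCtrl replicate 3, the library at 5.15 FPKM, the value was 0.77. Ccnt2 had 13.3, 28.7 and 36.4 FPKM in siMlx against 50.9, 52.1 and 43.7 FPKM in siCtrl embryos, with no overlap and a log2 fold change of -0.74 (95% interval -1.43 to -0.05, adjusted p = 0.245), which was -0.48 without 2-cell siMlx replicate 1. Hexim1 had 37.5, 43.5 and 33.4 FPKM in siMlx against 79.3, 74.1 and 58.1 FPKM in siCtrl embryos, with no overlap as deposited but overlap once rescaled, and a log2 fold change of -0.61 (95% interval -1.30 to 0.08). Brdt, the member with an E-box in its promoter, had -0.26 (95% interval -1.05 to 0.52). The 2-cell markers were lower in these libraries, at 88.9 to 360 FPKM in siMlx against 541 to 742 FPKM in siCtrl embryos, and their part in the members' values was not tested.

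In siRfx1 2-cell embryos Ccnt1 had 27.9, 31.2 and 21.6 FPKM against 76.5, 90.4 and 102 FPKM in siCtrl embryos, and the groups lay far apart. The log2 fold change after rescaling was -1.01 (95% interval -1.82 to -0.20, adjusted p = 0.144), while all genes had a median of -0.25 in this comparison. It was called with the FPKM as deposited (-1.70, adjusted p = 0.0312) and with all 23 libraries in a single fit (-1.20, adjusted p = 0.0134). Brd2, the member with an X-box half-site in its promoter, had 83.5, 65.4 and 63.7 FPKM in siRfx1 against 60.3, 79.0 and 75.2 FPKM in siCtrl embryos, which overlap, and 0.69 (95% interval -0.05 to 1.42) after rescaling. Without rescaling the values of Brd2, Brdt, Cdk9 and Ccnt2 were below 0 in place of above it, and that of Hexim1 was below 0 either way. For Cdk9, Ccnt2, Brd3 and Brdt the 3 siRfx1 libraries spread so widely that intervals reached from -0.83 to 1.56 in Cdk9 and from -0.98 to 3.16 in Brd3. The summed 2-cell markers were 214 to 303 FPKM in siRfx1 and 541 to 742 FPKM in siCtrl 2-cell embryos. The 8 oocyte markers summed to 2840 to 3370 FPKM in siRfx1 and 3080 to 4550 FPKM in siCtrl embryos as deposited, whereas after rescaling their median log2 fold change was 1.04 and Zar1 (3.69, adjusted p = 0.00993) and Gdf9 (2.33, adjusted p = 0.0144) were called higher. The part of these markers and of the depth of 119 to 174 Mb in the Ccnt1 value was not tested.

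In zygotes the KD values that stood out belonged to Cdk9. It had 1.18, 2.06 and 1.14 FPKM in siMlx zygotes against 8.60, 3.58 and 3.88 FPKM in siCtrl zygotes, with no overlap and a log2 fold change of -1.05 (95% interval -1.80 to -0.30, adjusted p = 0.107), which was called with the FPKM as deposited (-1.31, adjusted p = 0.0368). In siRfx1 zygotes it had 2.06, 2.16 and 2.92 FPKM, also below each siCtrl library, and -0.70 (95% interval -1.36 to -0.05, adjusted p = 0.318). Without zygote siCtrl replicate 1, the library at 8.60 FPKM, the value was -0.74 in siMlx and -0.39 in siRfx1 zygotes. Brdt was lower in value in siEtv5 zygotes, at 41.5, 39.5 and 23.3 FPKM against 67.1, 56.0 and 51.2 FPKM in siCtrl zygotes, with no overlap and -0.59 (95% interval -1.18 to 0.003, adjusted p = 0.402). The other zygote values of the members ranged from -0.28 (Brd2 in siEtv5) to 0.72 (Brd3 in siEtv5), and in siMlx zygotes those of Brd2, Brdt, Ccnt1 and Ccnt2 were above 0 after rescaling and below 0 as deposited. The summed 2-cell markers were 30.2 to 45.8 FPKM in siEtv5, 47.0 to 85.9 FPKM in siMlx, 37.5 to 60.7 FPKM in siRfx1 and 28.7 to 56.6 FPKM in siCtrl zygotes, and their part in the Cdk9 values was not tested.

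**Figure D5:**
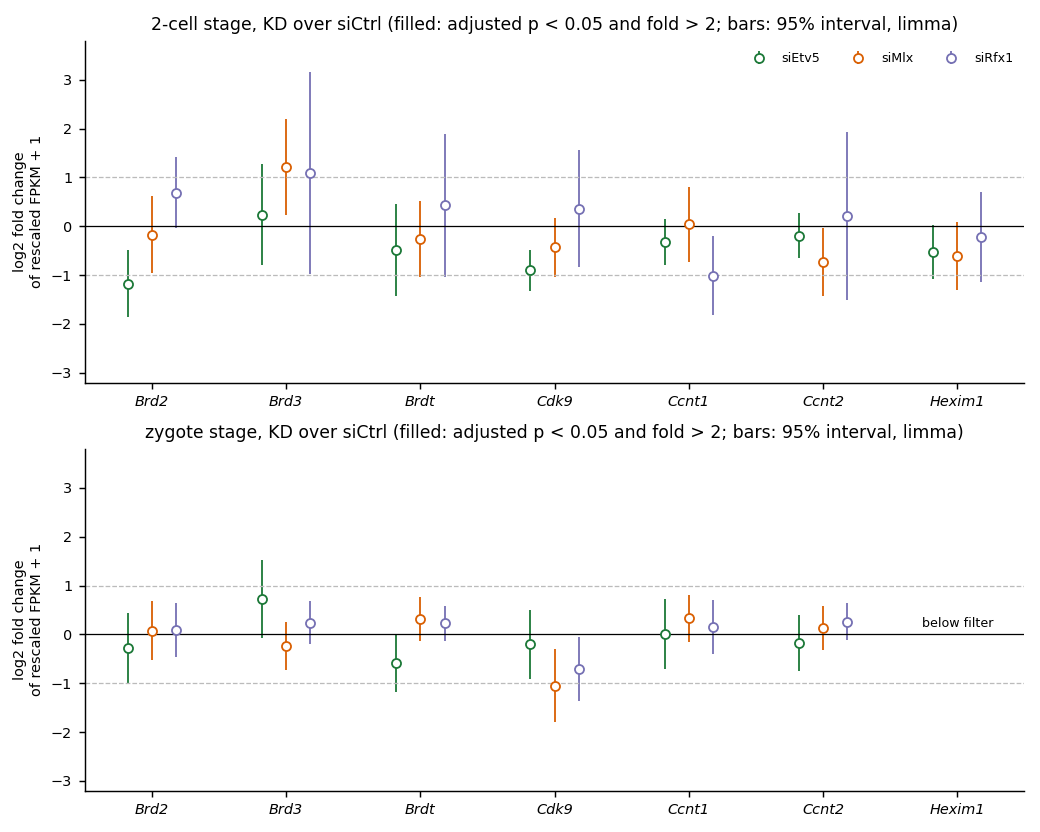
Log2 fold change of rescaled FPKM + 1 (vertical axis), KD over siCtrl embryos, at the 2-cell stage (upper panel) and in zygotes (lower panel), with 95% intervals from limma and dashed lines at a fold of 2. All points are open because no member was called, the siRfx1 interval of Brd3 at the 2-cell stage, from -0.98 to 3.16, is the widest, and Hexim1 was below the filter in zygotes.

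Whether the stage change itself depended on the siRNA was tested as an interaction of stage and siRNA. No member was called by limma, against 0.316% of all genes for siEtv5, 1.16% for siMlx and 9.96% for siRfx1. An unadjusted p under 0.05 was found in 0, 2 and 1 of the 7 members. Over all genes it was found in 2001 of 11060 for siEtv5, 1742 of 10787 for siMlx and 2923 of 10780 for siRfx1. Over all genes the siRfx1 interaction was positive in 328 and negative in 746 called genes after rescaling, and in 260 and 1392 as deposited, and the siEtv5 interaction in 11 and 24 after rescaling and 17 and 17 as deposited. The closest to the threshold was Ccnt1, whose stage change in siRfx1 embryos differed from that in siCtrl embryos by -1.41 on the log2 scale (95% interval -2.36 to -0.46, adjusted p = 0.0605), with a median of -0.40 over all genes. It was called without 2-cell siRfx1 replicate 1 (adjusted p = 0.0433), without 2-cell siRfx1 replicate 2 (adjusted p = 0.0312), without zygote siRfx1 replicate 1 (adjusted p = 0.0431) and with the FPKM as deposited (adjusted p = 0.032). The Brd3 stage change in siMlx embryos exceeded that in siCtrl embryos by 1.40 (95% interval 0.31 to 2.49, adjusted p = 0.194), so the call under siMlx and its absence under siCtrl do not amount to a called difference. For Cdk9 and Hexim1 the differences ran from -0.73 to 0.84 and from -0.46 to -0.25, and each interval included 0.

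Other genes of the pathway gave the setting of these changes, by lists that were drawn up with earlier results of these data known. Of the 17 pausing and elongation factors, 8 were higher and 3 lower in siCtrl 2-cell embryos than in siCtrl zygotes, with a median log2 fold change of 0.82. The largest were Supt4a (3.61 ± 0.21, adjusted p = 6.35e-06) and Supt5 (2.64 ± 0.20, adjusted p = 1.52e-05), the subunits of DSIF, which P-TEFb phosphorylates. Of 14 tested members of the 7SK and super elongation complexes, 6 were higher and 2 lower (median 0.80), led by Ell2 (3.15 ± 0.24) and Aff4 (2.66 ± 0.28), an elongation factor and the scaffold that carries P-TEFb in the super elongation complex. Of 16 kinases and phosphatases of the carboxy-terminal domain 4 were higher and 2 lower (median 0.17), with Rpap2 (-2.26 ± 0.24) and Ctdp1 (2.24 ± 0.30), both phosphatases, the furthest from 0. Of 30 other bromodomain genes 12 were higher and 5 lower (median 0.36), led by Brpf1 (3.09 ± 0.31) and Trim28 (2.44 ± 0.18). Of 5 partners of the BET extraterminal domain 1 was higher and 1 lower (median 0.08). The partner that rose was Jmjd6 (2.31 ± 0.19) and the one that fell was Chd4 (-1.27 ± 0.29). All genes had a median of 0.27, with 37.0% called higher and 26.9% lower. Under the other siRNAs the pausing and elongation factors had 10 of 17 higher and 3 lower in siEtv5, 11 higher and 2 lower in siMlx and 6 higher and 1 lower in siRfx1 embryos. Over all genes the shares higher and lower were 37.9% and 23% in siEtv5, 35.4% and 29.1% in siMlx and 18.7% and 29.7% in siRfx1 embryos. The 7SK and super elongation complex genes had 5 of 14 higher and 0 lower in siEtv5, 7 higher and 1 lower in siMlx and 4 higher and 1 lower in siRfx1 embryos. Supt5, Ell2 and Aff4 were called higher under every siRNA.

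In the KD comparisons few of these genes were called. In siMlx zygotes 4 were lower, against 1.02% of all 8934 genes tested, namely Mepce (-1.23 ± 0.24, adjusted p = 0.0428), the capping enzyme of 7SK RNA, Ctdsp1 (-1.12 ± 0.22, adjusted p = 0.0442), Brd1 (-1.02 ± 0.18, adjusted p = 0.0385) and Chd4 (-1.46 ± 0.18, adjusted p = 0.017). They were 1 of 12 7SK and super elongation complex genes, 1 of 15 kinases and phosphatases, 1 of 30 other bromodomain genes and 1 of 5 extraterminal domain partners. In siRfx1 2-cell embryos 2 were higher, against 2.12% of all genes, namely 1 of 17 pausing and elongation factors and 1 of 31 other bromodomain genes, Supt5 (1.75 ± 0.31, adjusted p = 0.0328) and Baz1b (2.18 ± 0.45, adjusted p = 0.0469). The same count was 0 in the other 4 KD comparisons. In the interaction of stage and siRfx1, where 3.04% of all genes were called higher and 6.92% lower, 6 of 30 other bromodomain genes were called higher and 1 lower, among them Baz1b (2.19 ± 0.50, adjusted p = 0.0207) and Brd1 (1.84 ± 0.38, adjusted p = 0.014). Of 17 pausing and elongation factors 2 were called higher and 1 lower there, namely Nelfcd (2.16 ± 0.60, adjusted p = 0.0428), Supt5 (1.96 ± 0.39, adjusted p = 0.0114) and Paf1 (-1.73 ± 0.47, adjusted p = 0.0404). Eaf1, a partner of the ELL factors, was called higher (1.82 ± 0.49, adjusted p = 0.0399), and Ssu72, a phosphatase of the carboxy-terminal domain (-1.54 ± 0.34, adjusted p = 0.0187), and Polr2a, the polymerase subunit that carries this domain (-1.54 ± 0.44, adjusted p = 0.0489), were called lower.

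The genes whose levels followed a member most closely over the 23 libraries were found among 6942 genes that averaged 5 FPKM or more, by Pearson r on log2(rescaled FPKM + 1). For Cdk9 they were Utp14a (r = 0.986), Pramel4 (0.984) and Glt25d1 (0.984), and for Hexim1 Fam109a (0.986), Hspbp1 (0.983) and Tmed5 (0.982). Cdk9 and Utp14a had r = 0.775 within the 11 2-cell and 0.755 within the 12 zygote libraries. For Hexim1 the values within 2-cell libraries were 0.458 (Fam109a), 0.550 (Hspbp1) and 0.040 (Tmed5), and those within zygote libraries 0.703, 0.70 and 0.787 in the same order of genes. Ccnt1 was followed by Gltpd1 (0.954), Imp4 (0.937) and Gm166 (0.932), with r = 0.868 within 2-cell and 0.832 within zygote libraries for Gltpd1. Brdt was followed by Smc1a (0.895), Blzf1 (0.871) and Ehf (0.870), with r = 0.770 within 2-cell and 0.868 within zygote libraries for Smc1a. Ccnt2 was followed by Entpd5 (0.880), Ago3 (0.868) and Nedd9 (0.861). In that order r was 0.992, 0.888 and 0.926 within 2-cell but -0.347, 0.542 and 0.553 within zygote libraries. Brd2 was followed by Znhit6 (0.869), Zbtb7a (0.865) and Nefl (0.856). In that order r was 0.751, 0.816 and 0.701 within 2-cell and 0.442, 0.104 and 0.338 within zygote libraries. Csnk1g2 (0.798) and Usp10 (0.784) were among the genes that followed Brd3. The correlations are a description over libraries that share stage, siRNA and depth, and carry no test.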

How the data were processed

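Complementary DNA was made with oligo-dT primers and amplified before sequencing. According to the submitters' processing notes the authors aligned reads with STAR 2.5.2b to mm9 and assembled them with StringTie 1.3.4, whereas the file headers name StringTie 1.3.3b. The deposited FPKM and per-base coverage are StringTie estimates per annotated transcript, with no counts. FPKM was summed per gene symbol. Libraries were rescaled by the median ratio to the geometric mean over the genes that reached 1 FPKM in every library of a fit, genes with a mean under 1 FPKM were left out, and log2(FPKM + 1) was tested with limma 3.58.1 in R 4.3.3 with Benjamini-Hochberg adjustment over all genes tested. KD and stage comparisons were fitted on the libraries of their groups, without a replicate term. A fold change is on the log2(FPKM + 1) scale and understates that of low genes. Scripts were tested on simulated data. The single-value exact permutation tests were also computed in R. Exon coverage and promoter motifs were computed with Python 3.11.15, numpy 2.4.6, pandas 2.3.3 and scipy 1.17.1.

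The members and lists were chosen with earlier results of these data known. All members were described, and from each list the largest called changes of a comparison were named. Nothing in the labels says that replicates came from separate batches of embryos. The methods of the study state that RNA-seq was repeated within each group, without naming batches of embryos. The p-values thus reflect only how these libraries spread, which may be technical. The alternatives were a pseudocount of 0.1, no filter, a filter at 5 FPKM, FPKM as deposited, all 23 libraries in one fit, a replicate block, the most abundant transcript alone, siEtv5 as the control of the siMlx and siRfx1 comparisons, and leaving out each library. One gene of those most like Brd3 is not reported here.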

Additional observations from a re-analysis of the deposited data

How the results depend on the processing

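Of 188 counts of called members under an alternative, 173 were equal to those reported and 15 differed by 1 member, 8 of them between stages and 7 in the KD and interaction comparisons, and no called fold change of a member reversed. With FPKM as deposited 1 member was called in siMlx against siCtrl zygotes (Cdk9), 1 in siRfx1 against siCtrl 2-cell embryos and 1 in the siRfx1 interaction (both Ccnt1). With all 23 libraries in one fit 1 member was called in siRfx1 against siCtrl 2-cell embryos (Ccnt1). Leaving out single libraries gave 0 to 1 called members in the siRfx1 interaction. Of 1272 fold changes of members under an alternative, 1199 kept their call or, if uncalled, stayed within their standard error, 4 lost a call, 11 gained one and 58 uncalled ones moved by more. The sign changed in 59, none of them called in either fit, of which 14 with FPKM as deposited. That setting moved the median of all genes by -0.60 in siRfx1 against siCtrl 2-cell embryos and by -0.29 to 0.37 in the other comparisons. Brdt gained a call with all 23 libraries in one fit, lower at the 2-cell stage in siCtrl (-1.08, adjusted p = 0.0475) and in siRfx1 embryos (-1.10, adjusted p = 0.0438). The counts over all genes ranged from 0 to 3278 in siRfx1 against siCtrl 2-cell embryos (367 as reported), from 1 to 683 in siMlx against siCtrl zygotes (192) and from 0 to 497 in siMlx against siCtrl 2-cell embryos (1), from 0 to 66 in siEtv5 (0) and 0 to 8 in siRfx1 against siCtrl zygotes (5), from 1 to 71 in siEtv5 against siCtrl 2-cell embryos (28), and from 11 to 711 (35), 18 to 281 (125) and 476 to 2255 (1074) in the siEtv5, siMlx and siRfx1 interactions, while the stage counts stayed between 3418 and 7289.

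The replicate numbers did not pair the samples. Deviations of same-numbered libraries had correlations of -0.128 to 0.273 over 28 pairs, and in 0 of 10 comparisons was every pair over 0.1. A fit with a replicate block called 87 genes in siRfx1 against siCtrl 2-cell embryos and 127 in siMlx against siCtrl zygotes, and changed no count of called members, with 4 in siCtrl, 3 in siEtv5, 6 in siMlx and 3 in siRfx1 embryos between stages and 0 in each KD comparison. Depth is known only as aligned bases, so no counting interval could be given, and the 119 to 174 Mb of the siRfx1 2-cell libraries limit that group most.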
